A study of Rattus norvegicus with 15 samples.

Results

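Astrocytes keep the fluid around neurons in balance: they take up the transmitter glutamate after synaptic release, move water at the end feet that wrap blood vessels, and share ions and metabolites through gap junctions. The genes described here carry these tasks. Slc1a2 encodes the glutamate transporter GLT-1 (EAAT2), Slc1a3 the glutamate transporter GLAST (EAAT1), Aqp4 the end-foot water channel aquaporin-4, Gja1 the gap junction protein connexin 43, and S100b a calcium-binding protein that is abundant in astrocytes and is also made by some oligodendrocyte lineage cells. Members were chosen by Ensembl rat gene ID, a rule that uses no measured value, and 5 of the 15094 genes in the count table are members: Slc1a2 (ENSRNOG00000005479), Slc1a3 (ENSRNOG00000016163), Aqp4 (ENSRNOG00000016043), Gja1 (ENSRNOG00000000805) and S100b (ENSRNOG00000001295). The symbols come from the rule that chose the members, since the count table holds IDs only.

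RNA was sequenced from brain tissue of Sprague-Dawley rats, labelled as basal ganglia, 72 h after modelling. The groups analysed were Sham (a sham operation, 5 libraries), ICH (intracerebral hemorrhage, bleeding into the brain, 3 libraries: replicates 1, 2 and 5) and ICH_MA (hemorrhage followed by mithramycin A, 3 libraries: replicates 1, 2 and 3). Mithramycin A is a drug that binds GC-rich DNA and is known to hinder binding of the transcription factor Sp1. The labels used here do not name the rats' age or sex, the method of hemorrhage, or the dose, route and vehicle of the drug. A further 4 samples have labels and are not analysed here.

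Library totals ran from 56393423 to 67733469 counts. With 14963 genes tested, 3662 changed in ICH against Sham, of which 2250 rose, 0 changed in ICH_MA against ICH, and 998 changed in ICH_MA against Sham, of which 748 rose (quasi-likelihood test of edgeR, threshold 0.05 on the adjusted p). Rises made up 61.4% and 74.9% of the called genes in the comparisons with Sham, and 75.7% and 85% when libraries were scaled by their totals only. Within ICH, replicate 5 had the lowest mean Spearman correlation with its group over all genes (0.9821, against 0.9849 and 0.9853). Within Sham, replicate 1 had the lowest (0.9885, against 0.9922 to 0.9931 in the others). Without ICH replicate 5 the count for ICH_MA against ICH was 1137. Member values are therefore also given without that library where this changes a call. All 5 members passed the filter on low counts. Their counts lay between 11216 and 74786 per library, where counting error alone is 0.944% down to 0.366%, well under the spread between libraries. The tissue was whole, so more or fewer astrocytes, more or less RNA per astrocyte, and RNA from other cells cannot be told apart. Markers of other cell types could not be read beside these values, because 0 of the table's IDs matched a symbol in the reference gene table.

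Because mithramycin A binds GC-rich DNA, the DNA before the start of 3 members is shown: both glutamate transporters, which differ in base composition, and Gja1. Each is the stretch of 250 bases before the most upstream RefSeq start, in the build GRCr8, which is not the build of the counts. Slc1a2 lies at chr3:109459859-109460108 (+ strand), Slc1a3 at chr2:59557809-59558058 (- strand) and Gja1 at chr20:36302314-36302563 (+ strand). Capitals mark GGCGG, the core of the GC box that Sp1 recognises, or its reverse complement CCGCC.
Slc1a2: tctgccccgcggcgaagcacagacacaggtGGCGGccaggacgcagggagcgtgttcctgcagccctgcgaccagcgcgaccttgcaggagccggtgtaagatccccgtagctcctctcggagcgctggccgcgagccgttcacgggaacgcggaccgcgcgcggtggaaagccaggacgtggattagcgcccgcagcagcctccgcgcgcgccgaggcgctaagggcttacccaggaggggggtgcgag
Slc1a3: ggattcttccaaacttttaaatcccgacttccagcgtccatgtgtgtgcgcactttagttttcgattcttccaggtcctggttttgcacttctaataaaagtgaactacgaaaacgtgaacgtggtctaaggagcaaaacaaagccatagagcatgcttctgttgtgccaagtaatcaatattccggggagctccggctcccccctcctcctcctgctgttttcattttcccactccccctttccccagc
Gja1: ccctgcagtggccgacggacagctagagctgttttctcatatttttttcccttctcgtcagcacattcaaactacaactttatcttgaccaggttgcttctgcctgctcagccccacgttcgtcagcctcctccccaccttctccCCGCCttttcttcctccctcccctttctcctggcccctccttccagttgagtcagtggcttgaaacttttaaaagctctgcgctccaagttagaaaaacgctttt

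The Slc1a2 stretch was 71.2% G or C, above 92.8% of the 27457 genes with such a stretch, whose median was 52%. The Slc1a3 stretch was 48% G or C, the Gja1 stretch 51.2%, the Aqp4 stretch 44.8% and the S100b stretch 54.8%. In the same order, these lay above 36.4%, 47.1%, 26.1% and 58.8% of genes. Searched on both strands, GGCGG was found 1 time in the stretches of Slc1a2, Gja1 and Aqp4 and 0 times in those of Slc1a3 and S100b, where 44.9% of all genes hold it. Where RefSeq gives several starts, 1 of 2 such stretches held it for Slc1a2, 1 of 3 for Slc1a3 and 2 of 2 for Aqp4, so other starts do not set the glutamate transporters apart in this way. The longer form GGGCGG, which contains GGCGG, was found in the stretch of Aqp4 and in 0 of the other 4, where 32.4% of all genes hold it. These matches describe letters in a window and were searched after the expression values were seen.

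Aqp4 and Gja1, the water channel and the gap junction gene, rose in ICH against Sham, and Slc1a2, Slc1a3 and S100b did not pass the test. The share of members called was 2 of 5, with 2 rises and 0 falls, where 24.5% of all genes tested were called, 15% rising and 9.44% falling. The median log2 fold change was 0.08 over the 5 members and 0.00 (0.0039) over all genes. In all 3 comparisons the members' median was the value of 1 gene, Slc1a3. In ICH_MA against Sham 3 of 5 members were called, all higher (Slc1a3, Aqp4 and Gja1), where 6.67% of all genes were called, 5% rising and 1.67% falling. The median log2 fold change there was 0.20 over the members and -0.0028 over all genes. Between ICH_MA and ICH 0 of 5 members were called with edgeR, as were 0% of all genes, and the members' median was 0.12 against -0.02 over all genes. Without adjustment, 2318 genes had p under 0.05 in that comparison, 2 of them members (Slc1a3 and S100b). DESeq2 called 477 genes and 1 member, S100b, and limma-voom called 0 genes. The 2 comparisons with Sham share the Sham libraries, and the 2 comparisons with ICH share the ICH libraries.

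**Figure D1:**
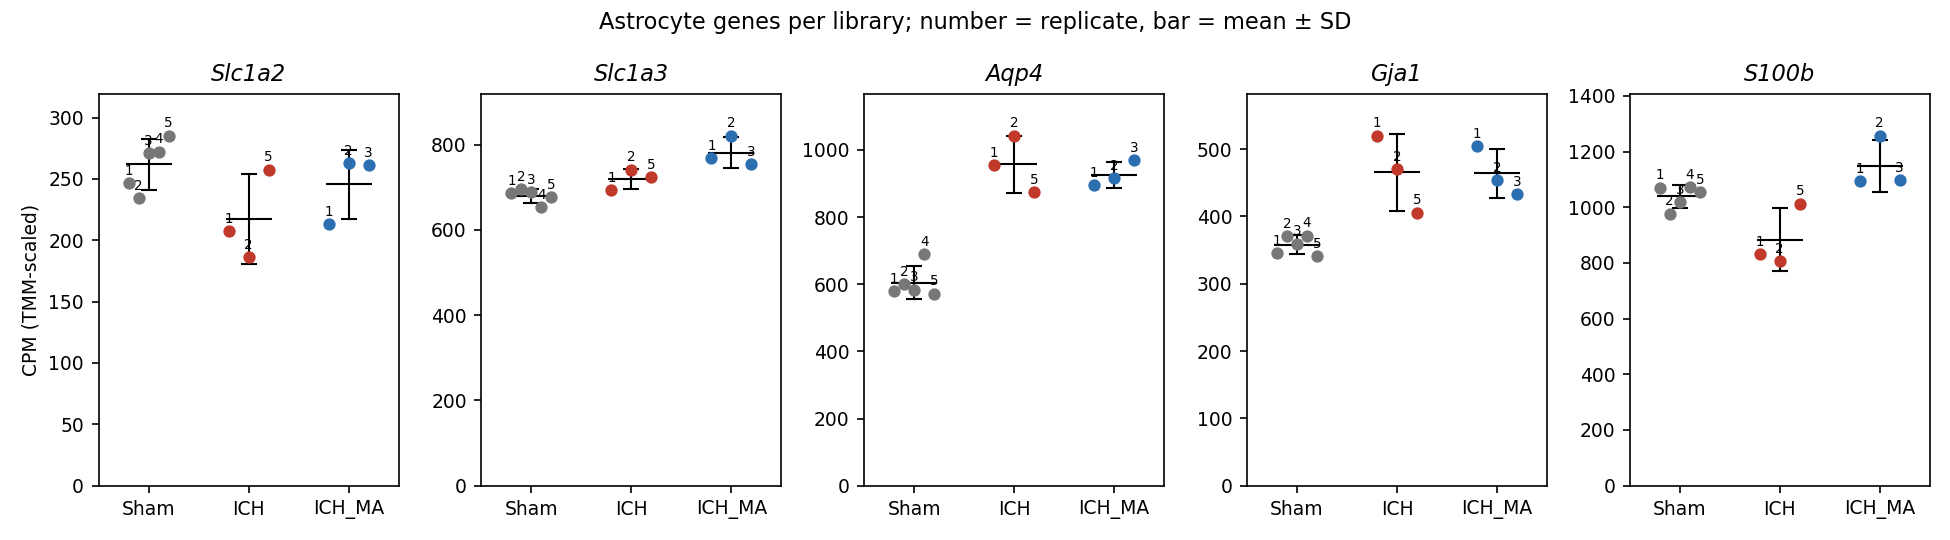
Level of each gene in CPM (counts scaled by TMM to a common library total, vertical axis from 0) in every library of the 3 groups; points are libraries with their replicate number, bars are mean ± SD. Every ICH and ICH_MA library lay above every Sham library for Aqp4 and Gja1, and ICH replicate 5 was the highest ICH library for Slc1a2 and S100b.

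Aqp4 passes water between brain, blood and cerebrospinal fluid. Its level in CPM, counts scaled to a common library total, was 579, 599, 584, 690 and 572 in Sham replicates 1 to 5. It was 955, 1043 and 873 CPM in ICH replicates 1, 2 and 5, and 894, 915 and 969 CPM in ICH_MA replicates 1, 2 and 3. Both hemorrhage groups lay wholly above Sham, and they overlapped each other. The lowest ICH library was 26.5% above the highest Sham library. Group levels were 604.9 ± 48.8 CPM in Sham (SD, n = 5), 957.1 ± 84.8 in ICH (SD, n = 3), with ICH_MA at 926.1 ± 38.4 (SD, n = 3).

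Aqp4 rose 1.58-fold in ICH against Sham, and its log2 fold change was 0.66 (SE 0.07, edgeR adjusted p = 0.000331), larger than in 89.2% of all genes in absolute size. It rose 1.53-fold in ICH_MA against Sham, and its log2 fold change was 0.61 (SE 0.07, edgeR adjusted p = 0.00138). Both calls held in all 20 alternatives run for each. ICH_MA and ICH differed by less than the spread between libraries, with a log2 fold change of -0.05 and a 95% interval of -0.23 to 0.14 (edgeR adjusted p = 0.831).

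Gja1 encodes the connexin that joins astrocytes to each other. It was at 345, 371, 359, 371 and 341 CPM in Sham replicates 1 to 5. ICH replicates 1, 2 and 5 were at 520, 470 and 405 CPM, and ICH_MA replicates 1, 2 and 3 at 504, 453 and 433 CPM. All hemorrhage libraries exceeded all Sham libraries, and the spread was narrow in Sham and wider in ICH. The means were 357.6 ± 14.1 CPM in Sham (SD, n = 5), 465.2 ± 57.6 in ICH (SD, n = 3), with ICH_MA at 463.7 ± 36.7 (SD, n = 3).

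In ICH against Sham Gja1 rose 1.3-fold, or 0.38 on the log2 scale (SE 0.08, edgeR adjusted p = 0.00551), and the call held in all 20 alternatives. In ICH_MA against Sham it also rose 1.3-fold, with a log2 fold change of 0.37 and SE 0.08 (edgeR adjusted p = 0.019). This call was lost in 3 of 20 alternatives, among them without ICH_MA replicate 1 (edgeR adjusted p = 0.0766) and without ICH_MA replicate 2 (adjusted p = 0.0625), and adjusted p ranged from 0.000285 to 0.114 over the alternatives. ICH_MA and ICH had nearly equal means, with a 95% interval of the log2 fold change of -0.20 to 0.19, and the sign of this difference varied between scalings.

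Slc1a2 encodes the transporter that takes up most glutamate in the forebrain. It stood at 247, 234, 271, 272 and 285 CPM in Sham replicates 1 to 5. ICH replicates 1 and 2 were at 208 and 186 CPM, below every Sham library, whereas ICH replicate 5 was at 258 CPM, within the Sham range. In ICH_MA, replicate 1 was at 213 CPM and replicates 2 and 3 at 263 and 261 CPM, so that 1 of 3 libraries lay below Sham.

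The order of Slc1a2 group means was Sham (261.8 ± 20.9 CPM, SD, n = 5), ICH_MA (245.6 ± 28, SD, n = 3) and ICH (217.1 ± 36.6, SD, n = 3), and neighbours in this order overlapped. ICH was at 0.829 times the Sham level, or -0.27 on the log2 scale (SE 0.11), and did not pass (edgeR adjusted p = 0.0964, range over the alternatives 0.00944 to 0.328). Without ICH replicate 5 the log2 fold change was -0.41 (edgeR adjusted p = 0.0123), and without ICH replicate 2 it was -0.17 (edgeR adjusted p = 0.328). DESeq2 put the value with all libraries past the threshold (adjusted p = 0.0458). Against Sham, ICH_MA had a log2 fold change of -0.09 with a 95% interval of -0.33 to 0.15 (edgeR adjusted p = 0.681). Against ICH it was 0.18, with a 95% interval of -0.09 to 0.45 (edgeR adjusted p = 0.515).

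Slc1a3, the other astrocyte glutamate transporter, varied least among the members in Sham, with a coefficient of variation of 2.45%. It was at 686, 696, 688, 653 and 677 CPM in Sham replicates 1 to 5. ICH replicates 1, 2 and 5 were at 694, 741 and 724 CPM, and ICH_MA replicates 1, 2 and 3 at 769, 821 and 754 CPM. Replicate 1 of ICH lay within the Sham range, and every ICH_MA library lay above every ICH and every Sham library, by 1.68% over ICH and 8.32% over Sham at the closest.

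The order of Slc1a3 means, from the lowest, was Sham (680 ± 16.7 CPM, SD, n = 5), ICH (719.7 ± 24.2, SD, n = 3) and ICH_MA (781.3 ± 35.6, SD, n = 3). Against Sham, ICH had a fold change of 0.08 on the log2 scale (SE 0.05, edgeR adjusted p = 0.235), and ICH_MA rose by 14.9%, or 0.20 on the log2 scale (SE 0.05, edgeR adjusted p = 0.0302). That call was lost in 8 of 20 alternatives. It did not hold without Sham replicates 2, 3, 4 or 5 (edgeR adjusted p = 0.0579, 0.0749, 0.0881 and 0.0759, each left out alone). Nor did it hold without ICH_MA replicates 1, 2 or 3 (edgeR adjusted p = 0.0721, 0.15 and 0.0558). The log2 fold change stayed between 0.16 and 0.24 in all 20 alternatives, where adjusted p ranged from 0.000455 to 0.208. ICH_MA against ICH gave 0.12, with a 95% interval of 0.0013 to 0.24, and did not pass (edgeR adjusted p = 0.318).

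S100b binds calcium inside astrocytes and is also released from them. Its level was 1071, 977, 1019, 1073 and 1054 CPM in Sham replicates 1 to 5. ICH replicates 1 and 2 were at 831 and 806 CPM, below Sham, and replicate 5 at 1013 CPM lay within the Sham range. ICH_MA replicates 1, 2 and 3 were at 1094, 1258 and 1098 CPM, above every library of both other groups. The closest gap was 1.98% over Sham and 8.03% over ICH.

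S100b means were lowest in ICH (883.2 ± 113 CPM, SD, n = 3), then Sham (1039 ± 40.8, SD, n = 5), then ICH_MA (1150 ± 93.4, SD, n = 3). In ICH against Sham the log2 fold change was -0.23 with SE 0.08, just outside the threshold (edgeR adjusted p = 0.0561, range 0.00426 to 0.205). It passed in 5 of 20 alternatives and not in the other 15. Among the 5 was edgeR with ICH replicate 5 left out (log2 fold change -0.34, adjusted p = 0.00426). DESeq2 (adjusted p = 0.0156), limma-voom (adjusted p = 0.0477) and RLE scaling in edgeR (adjusted p = 0.0472) also passed. Leaving out ICH replicate 2 instead gave -0.17 (edgeR adjusted p = 0.205).

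In ICH_MA against ICH S100b was 30.2% higher, the widest difference among the members in this comparison, with a log2 fold change of 0.38 and SE 0.09. The difference did not pass (edgeR adjusted p = 0.176, range 0.00523 to 0.481). This value equalled the smallest adjusted p of any gene in the comparison. Other genes shared it through the adjustment, so it does not place S100b first among them. Of all genes tested, 95.1% had a lower log2 fold change. S100b passed in 3 of 20 alternatives and not in the other 17. Among the 3 was edgeR with ICH replicate 5 left out (log2 fold change 0.49, adjusted p = 0.00537). That library had the highest S100b level in ICH, so its removal widens the difference and keeps only ICH replicates 1 and 2. DESeq2 with all libraries also passed (adjusted p = 0.00762). Leaving out ICH replicate 1 instead gave 0.34 (edgeR adjusted p = 0.481), and leaving out replicate 2 gave 0.32 (edgeR adjusted p = 0.286). Against Sham, ICH_MA gave 0.15 with a 95% interval of -0.03 to 0.32 (edgeR adjusted p = 0.312).

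**Figure D2:**
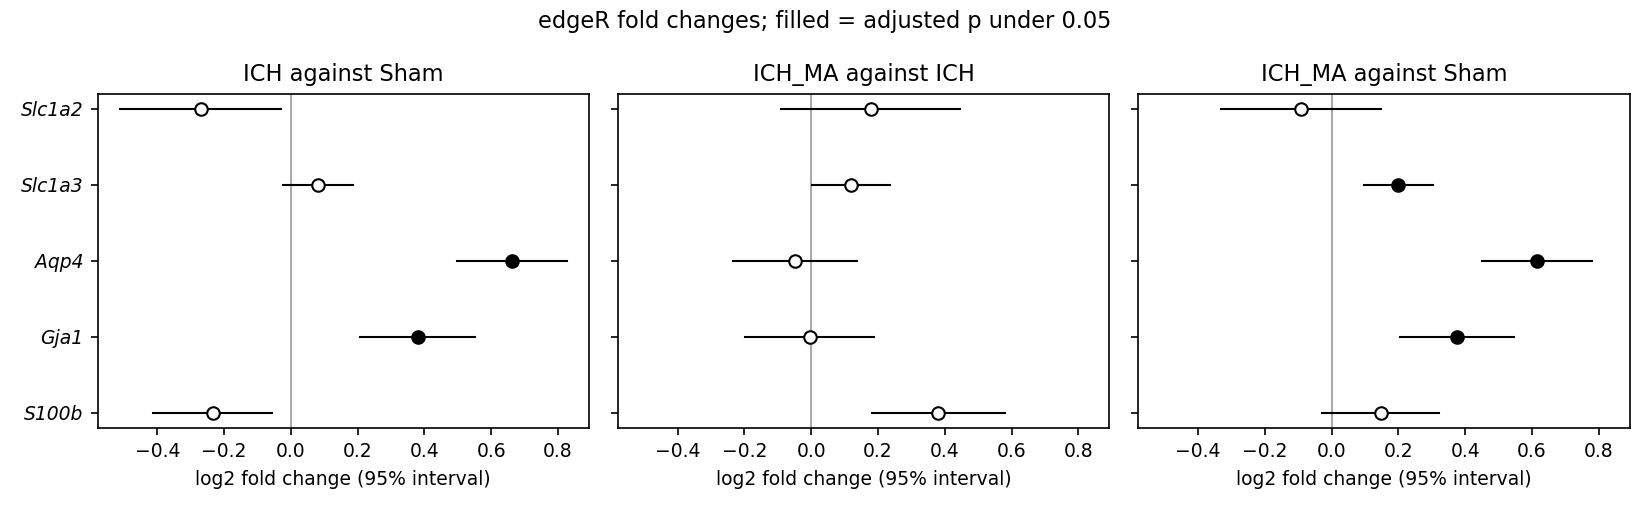
Log2 fold change (horizontal axis) of each gene in the 3 comparisons, from edgeR, with 95% intervals as lines; filled points had an adjusted p under 0.05. Filled points are Aqp4 and Gja1 in ICH against Sham and Slc1a3, Aqp4 and Gja1 in ICH_MA against Sham, and there is no filled point in ICH_MA against ICH.

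Set against the whole table, the members spread to both sides in ICH against Sham. Groups did not overlap for 2 of 5 members in ICH against Sham, where the share was 26% of all genes. In ICH_MA against ICH it was 2 of 5 members (Slc1a3 and S100b), where 17% of genes were separated. In ICH_MA against Sham it was 4 of 5, all but Slc1a2, where 19% were separated. In ICH against Sham 91.1% of genes had a lower log2 fold change than Aqp4 and 84.1% a lower one than Gja1. For S100b this share was 15.7% and for Slc1a2 13%. In ICH_MA against Sham the shares were 94.2% for Aqp4, 89.3% for Gja1, 80.7% for Slc1a3, 75.9% for S100b and 29.1% for Slc1a2. In ICH_MA against ICH they ran from 42.7% for Aqp4 to 95.1% for S100b.

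**Figure D3:**
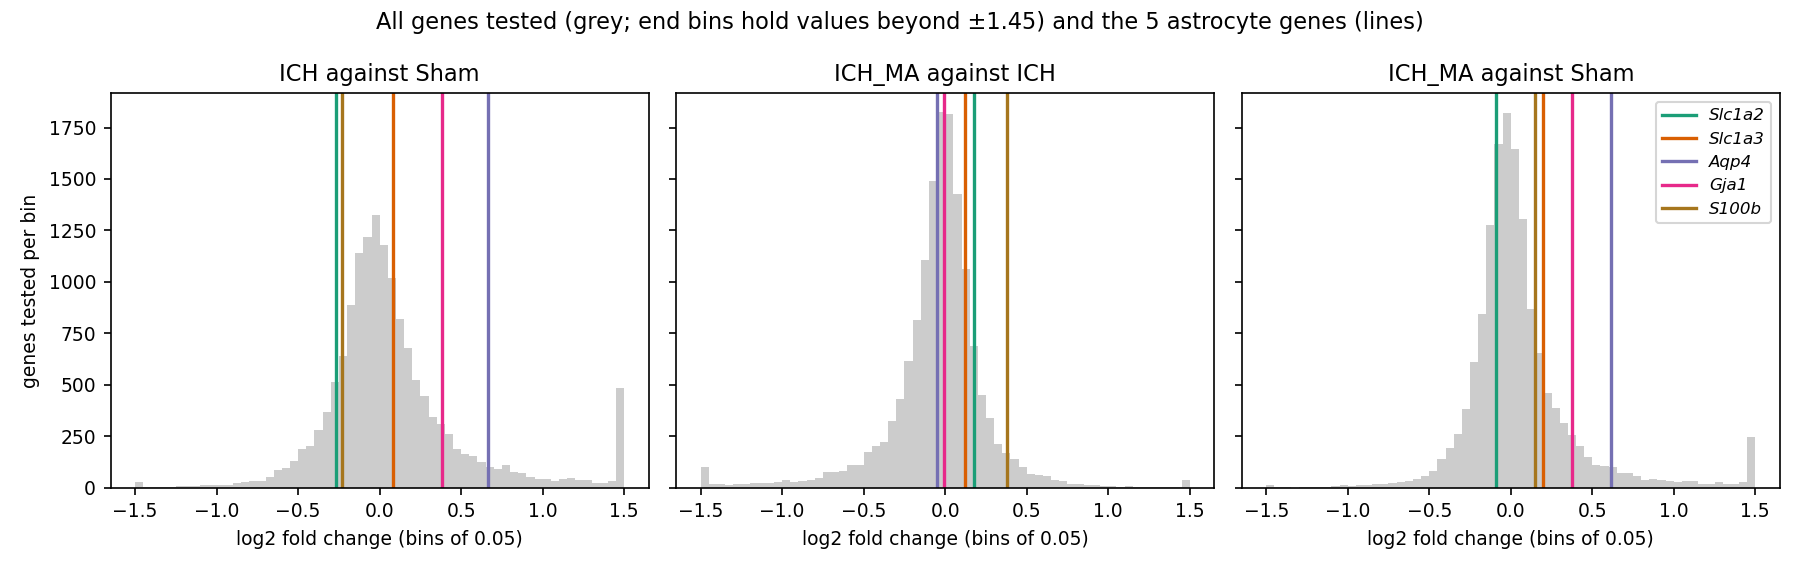
Number of genes tested per bin of log2 fold change (grey bars, 14963 genes in each panel) for the 3 comparisons, with coloured lines at the 5 astrocyte genes. In ICH against Sham the lines of Slc1a2 and S100b stand left of the tallest bars and those of Gja1 and Aqp4 right of them. In ICH_MA against ICH the lines of Aqp4 and Gja1 stand near 0 and that of S100b furthest right.

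The summed share of the members in a library's counts was 0.289% ± 0.00768 in Sham (SD, n = 5). It was 0.33% ± 0.00496 in ICH (SD, n = 3), and in ICH_MA it was 0.36% ± 0.00989 (SD, n = 3). The genes with the most counts weigh most in this sum. Among the 3 ICH libraries, replicate 5 was the highest for Slc1a2 and S100b and the lowest for Aqp4 and Gja1.

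Ratios of counts within a library do not depend on scaling between libraries. They are not corrected for transcript length, so only their change between groups can be read. Per count of Slc1a2, the glutamate transporter Slc1a3 had 2.78, 2.97, 2.54, 2.4 and 2.37 counts in Sham replicates 1 to 5. It had 3.34, 3.98 and 2.81 in ICH replicates 1, 2 and 5 and 3.6, 3.13 and 2.89 in ICH_MA replicates 1, 2 and 3. In each hemorrhage group 1 library fell within the Sham range.

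The log2 ratio of Slc1a2 to Slc1a3 was lower by 0.36 in ICH than in Sham (difference -0.36, exact two-sided permutation p = 0.0714, smallest possible 0.0357, adjusted over the 3 comparisons 0.107). The difference of ICH_MA from Sham was -0.29 (exact two-sided permutation p = 0.0714, adjusted 0.107). ICH_MA and ICH differed by 0.07 (exact two-sided permutation p = 0.8, smallest possible 0.1, adjusted 0.8), and this sign turned without ICH replicate 2 (-0.06) and without ICH_MA replicate 3 (-0.0058). None of the 3 passed, and with these group sizes the smallest adjusted value possible is 0.0536.

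Aqp4 and S100b, a pair chosen after their values were seen, differed in direction in ICH. Aqp4 counts per S100b count were 0.541 to 0.643 in Sham and 1.15, 1.29 and 0.862 in ICH replicates 1, 2 and 5. They were 0.817, 0.728 and 0.882 in ICH_MA replicates 1, 2 and 3. Both hemorrhage groups lay wholly above Sham. ICH replicate 5 lay among the ICH_MA libraries, and the other ICH libraries lay above all of them.

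**Figure D4:**
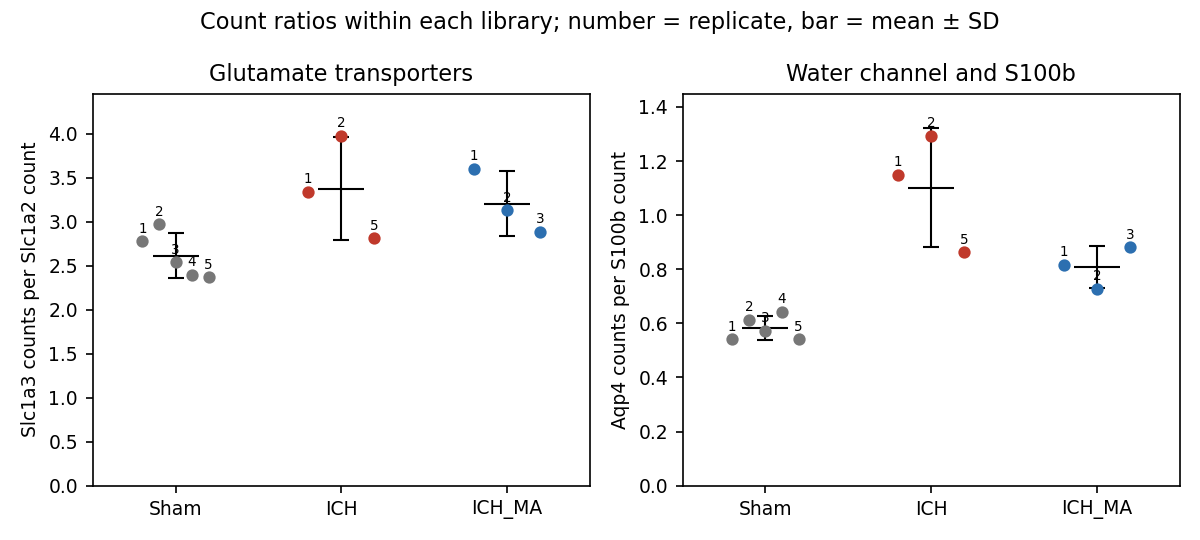
Counts of Slc1a3 per count of Slc1a2 (left) and of Aqp4 per count of S100b (right) in each library, vertical axes from 0; points carry replicate numbers and bars are mean ± SD. The left ratio overlaps between groups, and the right ratio is 0.541 to 0.643 in Sham and 0.728 or more in every ICH and ICH_MA library.

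Of the genes outside the members, those whose log2 CPM most resembled the mean standardised level of the 5 members over the 11 libraries were ENSRNOG00000001113 (Pearson's r = 0.93) and ENSRNOG00000013484 (r = 0.93). These are descriptions over libraries that share groups, and the IDs have no symbol in the sources used here. ENSRNOG00000001113 was at 172.5 ± 4.21 CPM in Sham (SD, n = 5), 181.2 ± 5.99 in ICH (SD, n = 3), with ICH_MA at 204 ± 12.3 (SD, n = 3). ENSRNOG00000013484 was at 69.8 ± 5.69, 72.1 ± 5.48 and 108.2 ± 14.6 CPM in the same groups. Both were highest in ICH_MA. The members' mean standardised level, by which these genes were chosen, was also highest there, so this likeness follows from the choice.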

How the data were processed

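RNA sequencing of rat brain tissue was deposited as 1 table of whole-number counts per gene for 11 libraries, without normalization. Bowtie2, RSEM 1.3.1, DESeq2 1.4.5 and the build mRatBN7.2 are named per the submitters' processing notes. The sources used here do not give their roles, the annotation, the use of strand or any rounding, so reads shared by gene copies or antisense partners may be divided between IDs. Columns were matched to samples by library name. Whether replicates are separate animals rests on the design text, which names 5 rats per group.

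The analysis used edgeR 4.0.16 (R 4.3.3). Low counts were removed with filterByExpr at its minimum count of 10 and total of 15, leaving 14963 genes and dropping 131. TMM scaling was applied, and 1 model with a mean per group held all 11 libraries. The quasi-likelihood F test was adjusted by Benjamini and Hochberg over all genes tested, and the threshold was 0.05. Intervals are 95% intervals from the same test. Log2 CPM used a prior count of 2. Count ratios were compared with exact permutation tests in SciPy 1.17.1. The model was tested on counts simulated from its own fitted levels and spread, which cannot show whether it suits these data. Alternatives were DESeq2 1.42.0, limma-voom (limma 3.58.1), other scalings, no filter, fewer groups, a replicate block and leaving out each library.

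The design assumed 15 samples, and 4 had no column. The members, lists and tests were chosen with earlier results of these data known. All 5 members are named in every comparison, and of other genes only the 2 most like their mean. The lists of further astrocyte, connexin, glutamate transporter, S100 and cell type genes hold symbols, and 0 of the 15094 IDs matched a symbol among the 47357 genes of the reference table (GRCr8), so none was tested. Upstream sequences are RefSeq's, in the build GRCr8, matched by symbol for 5 of 5 members.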

Additional observations from a re-analysis of the deposited data

Results flagged for a closer look

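Sham replicate 4 had an Aqp4 level of 690.3 CPM, apart from the other Sham libraries (572 to 599 CPM), with a gap of 0.768 of the group's range where 0.71 is the critical ratio for 5 libraries. The same library had the highest share of its counts in the 5 members, 0.3025%, with a gap of 0.721 of the range. These were 2 of 7 measures checked, chance marks about 1 in 20 groups, and both measures hold Aqp4. Without this library the log2 fold change of Aqp4 was 0.69 in ICH against Sham (edgeR adjusted p = 0.000911) and 0.66 in ICH_MA against Sham (adjusted p = 0.00216).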

How the results depend on the processing

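Each of the 15 member comparisons had 20 alternatives. Leaving out 1 library at a time gave 1992 to 4484 changed genes and 2 to 4 changed members in ICH against Sham, 0 to 1137 genes and 0 to 1 members in ICH_MA against ICH, and 348 to 1575 genes and 1 to 3 members in ICH_MA against Sham. In each of the first 2 comparisons the upper ends came without ICH replicate 5. So did the 1575 genes in ICH_MA against Sham, a comparison that holds no ICH library but shares the fit. The single member left in ICH_MA against Sham, without ICH_MA replicate 1 or 2, was Aqp4. DESeq2 called 4 members in ICH against Sham, 477 genes and 1 member in ICH_MA against ICH, and 1830 genes in ICH_MA against Sham. With only the groups compared, ICH_MA against Sham gave 1541 genes. Without both ICH replicate 5 and Sham replicate 1, an alternative added after the data were seen, 4940 genes and 4 members changed in ICH against Sham, 1384 genes and 1 member in ICH_MA against ICH, and 2008 genes in ICH_MA against Sham. The cause of these shifts was not tested. For Gja1 in ICH_MA against ICH the log2 fold change was -0.0049 and turned to 0.0045 with RLE scaling, 0.0020 with upper-quartile scaling, 0.011 with only the groups compared and 0.0045 with DESeq2, and ranged from -0.0951 to 0.0827 with 1 library left out. For Aqp4 in the same comparison it ranged from -0.1095 to 0.0185. The difference in log2 ratio of Slc1a2 to Slc1a3 between ICH_MA and ICH ranged from -0.059 to 0.192.

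The labels number replicates in each group without saying that a number pairs rats. Deviations from group means of same-numbered libraries correlated at -0.16 to 0.09 over 8 pairs, 0 of them over 0.1. With few libraries per group and no known pairs to compare with, these values cannot decide whether a number pairs rats. With a replicate block 1914 genes and 2 members changed in ICH against Sham. For ICH_MA against Sham the block gave 117 genes and 1 member, Aqp4, and the calls of Gja1 (log2 fold change 0.35, edgeR adjusted p = 0.114) and Slc1a3 (0.18, adjusted p = 0.208) were lost. Counting error was at most 0.944% of any member's count, and no alternative changed the depth.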

Other observations

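Gja1 counts per Aqp4 count were 0.538 to 0.619 in Sham, 0.451 to 0.544 with ICH and 0.447 to 0.564 with ICH_MA, so the ratio was lower on average with hemorrhage although both genes were higher. Its means were 0.593 ± 0.0324 in Sham (SD, n = 5), 0.487 ± 0.0505 with ICH (SD, n = 3) and 0.502 ± 0.0588 with ICH_MA (SD, n = 3), and the groups overlapped. Slc1a2 counts per S100b count were 0.252 ± 0.017 in Sham (SD, n = 5), 0.245 ± 0.0122 with ICH (SD, n = 3) and 0.214 ± 0.0218 with ICH_MA (SD, n = 3). Neither Slc1a2 nor S100b passed the main edgeR test, with TMM scaling and all libraries, in any of the 3 comparisons. Both ratios were chosen after the values were seen and were not tested.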
